A study of Rattus norvegicus with 27 samples.

Results

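Reads on 9 serotonin receptor genes were followed in medial prefrontal cortex (mPFC) RNA of 27 male rats of the Wistar strain. The genes are Htr1a, Htr1b, Htr1f, Htr2a, Htr2c, Htr3a, Htr4, Htr6 and Htr7, taken by their rat gene symbol and NCBI gene ID from the 36865 rows of the count table, without use of their values. A further 5 serotonin receptor genes had a row (Htr1d, Htr2b, Htr3b, Htr5a and Htr5b) and are described by their values only. Each library held the RNA of 1 rat, and all 27 rats formed 1 group without a control group. The rats had been through repeated tests of anxiety-like behavior and were taken from the home cage at rest. The sample labels give Learned helplessness as the treatment of every rat, which the protocol text and the study's methods do not describe. The study asked which genes follow trait anxiety. Anxiety scores of single rats were not used here, so the values below describe how much of each receptor was read, how far rats differed, and which genes moved with it.

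Serotonin reaches the prefrontal cortex through fibers of neurons in the midbrain raphe nuclei and acts there on many receptors at once. The Htr1 receptors couple to inhibitory G proteins that lower cyclic AMP and open potassium channels of the Kcnj family. The Htr2 receptors couple to Gq proteins and phospholipase C beta and excite the cell. Htr4, Htr6 and Htr7 couple to Gs and raise cyclic AMP, and Htr3a forms an ion channel that serotonin opens directly. In the cortex, Htr1a and Htr2a are known from pyramidal cells and some interneurons, and Htr3a from a class of interneurons that includes the Vip and Reln cells. The tissue was a piece of cortex with all its cell types, so fewer cells of a type and less RNA per cell cannot be told apart.

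Promoter sequence is given for 3 of the 5 receptors held by the RefSeq table of the rat assembly GRCr8. Htr1b and Htr6 belonged to receptor pairs called over all libraries, none of which was called without library 3, and Htr2c belonged to no called pair. Each sequence runs 5′ to 3′ from 250 bases before the annotated start to 50 bases after it, and capitals mark the CpG dinucleotides.
Htr1b: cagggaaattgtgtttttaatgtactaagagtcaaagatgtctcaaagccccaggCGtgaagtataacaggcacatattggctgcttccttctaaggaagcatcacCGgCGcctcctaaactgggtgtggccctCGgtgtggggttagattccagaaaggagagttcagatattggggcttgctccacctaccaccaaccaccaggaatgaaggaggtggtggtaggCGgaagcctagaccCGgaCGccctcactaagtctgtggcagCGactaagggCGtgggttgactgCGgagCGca
Htr6: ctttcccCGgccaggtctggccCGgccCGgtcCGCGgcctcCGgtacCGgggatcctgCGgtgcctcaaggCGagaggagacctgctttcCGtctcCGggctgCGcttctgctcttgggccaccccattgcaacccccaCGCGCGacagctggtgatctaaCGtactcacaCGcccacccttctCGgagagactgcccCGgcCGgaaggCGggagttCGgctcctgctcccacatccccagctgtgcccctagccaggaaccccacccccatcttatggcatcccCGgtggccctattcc
Htr2c: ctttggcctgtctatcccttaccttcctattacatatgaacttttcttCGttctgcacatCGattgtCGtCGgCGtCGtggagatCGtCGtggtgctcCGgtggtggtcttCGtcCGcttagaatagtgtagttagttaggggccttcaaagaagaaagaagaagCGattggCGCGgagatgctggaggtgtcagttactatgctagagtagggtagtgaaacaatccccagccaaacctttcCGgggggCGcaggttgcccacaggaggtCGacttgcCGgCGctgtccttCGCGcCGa
The Htr1b promoter lies at chr8:91414766-91415065 on the minus strand, that of Htr6 at chr5:156595098-156595397 on the minus strand, and that of Htr2c at chrX:115452940-115453239 on the plus strand. They held 11, 23 and 22 CpG dinucleotides, against a median of 7 over 27457 promoters of the same length. The G and C content was 53.7% for Htr1b, 68% for Htr6 and 53.7% for Htr2c, against a median of 52.3%. Of the other receptors in the table, the Htr7 promoter held 44 CpG dinucleotides at a G and C content of 79.7%, and the Htr1f promoter held 0 at 26.3%. The GC box, searched as GGGCGG on both strands, was in none of the 5 receptor promoters and in 34.9% of all promoters. The TATA box, searched as TATAAA on both strands, was in none of the 5 and in 14.3% of all. The E-box, searched as CACGTG, was in none of the 5 and in 6.65% of all. Htr1a, Htr2a, Htr3a and Htr4 had no entry.

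The libraries held 4907255 to 12771309 counted reads, with a median of 8168801. The 16 libraries numbered up to 31 held 4907255 to 8568317 reads and the 11 numbered from 32 held 9404220 to 12771309, so relations across rats are also given within these depth blocks. The labels do not say what the number stands for. Excitatory neuron markers of the cortex were present in every library, at a sum of 13558 to 24089 normalized counts, and choroid plexus markers summed to 46 at most. Library 3 stood apart. Its summed oligodendrocyte markers (7 genes such as Mbp and Mog) came to 60092 normalized counts, against a median of 27467 and a highest value of 41433 in the other libraries. Its summed excitatory neuron markers (6 genes such as Slc17a7 and Camk2a) came to 13558, the lowest of all, against a median of 21138. The next lowest value, 15341, was in library 19. The same libraries led in the sum of 72 cytosolic ribosomal protein genes, with 146173 in library 3 and 115630 in library 19 against a median of 92871. Results that rest on these libraries are given with and without them.

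All values below are normalized read counts, the counts divided by a size factor for each library, and they are not divided by gene length. Levels therefore compare rats for 1 receptor and not 1 receptor with another.

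**Figure D1:**
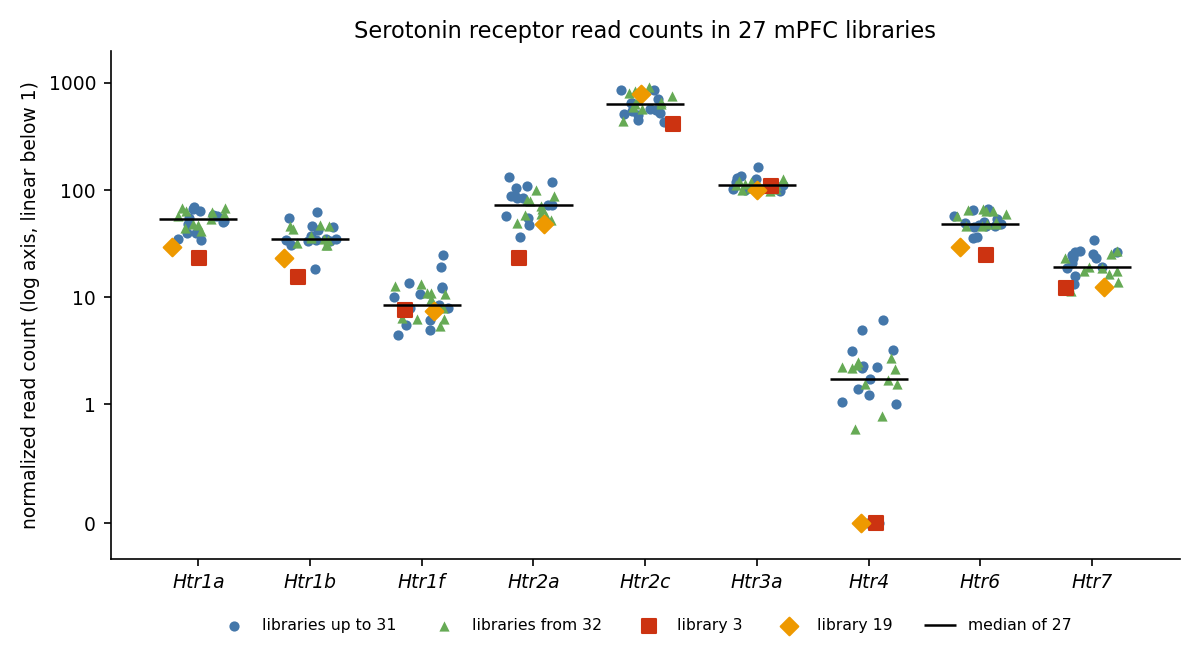
Normalized read counts (vertical, log axis that is linear below 1) of the 9 serotonin receptor genes (horizontal) in 27 mPFC libraries, 1 point per rat, with the median as a line. Library 3 was the lowest for Htr1a, Htr1b, Htr2a, Htr2c and Htr6, while the Htr3a points lie close together and Htr4 reaches 0.

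Among the receptors coupled to inhibitory G proteins, Htr1a, the autoreceptor of raphe neurons and a target of anxiolytic drugs, was read at 22.9 normalized counts in the lowest library, 53.6 at the median and 68.9 in the highest. Its mean was 51.5 ± 12.5 (SD, n = 27), from 15 to 96 reads a library. The lowest libraries were 3 and 19, with 22.9 and 29.5. Htr1b, a receptor on axon terminals that limits transmitter release, ranged from 15.3 in library 3 over a median of 34.6 to 62.5 in library 13. Its mean was 36.9 ± 10.1 (SD, n = 27), from 10 to 69 reads. Htr1f, another member of the Htr1 family, was read 4 to 22 times a library, at 9.73 ± 4.52 normalized counts (SD, n = 27). Its highest values, 25 and 18.9, were in libraries 12 and 20.

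Of the Gq-coupled receptors, Htr2a, the receptor through which psychedelic drugs act, spread widely. It stood at 22.9 in library 3, 71.8 at the median and 132 in library 12, a 5.74-fold range, with a mean of 73.4 ± 25.5 (SD, n = 27). Without library 3 the lowest value was 36.3. Htr2c, an X-linked receptor whose transcript is edited, was the most deeply counted of the set, with 273 to 1148 reads a library. It ranged from 417 in library 3 over 637 to 920 in library 51, a 2.20-fold range, with a mean of 644 ± 146 (SD, n = 27). The second lowest library, at 431, was close to library 3, so Htr2c was not set apart there as Htr2a was.

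Htr3a, the ion channel subunit, varied least. It lay between 96.9 and 164 with a median of 111, a 1.69-fold range, and averaged 113 ± 14.8 (SD, n = 27). Library 3 stood in the middle of its range, at 110. The channel's other subunit, Htr3b, was read 1 time in all 27 libraries together.

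Among the Gs-coupled receptors, Htr6, which is found on neuronal primary cilia, ranged from 24.5 in library 3 over 48.6 to 67.0 in library 51, with a mean of 50.5 ± 11 (SD, n = 27). Htr7 ranged from 11.5 over 19 to 34.1, with a mean of 20.4 ± 5.84 (SD, n = 27), from 8 to 38 reads. Htr4 was near the limit of detection. It had 0 to 5 reads, it was at 0 in 4 libraries, and it passed 3 reads in 3 of 27. A count of 0 allows up to 3 reads by counting error, so differences between rats in Htr4 were not detectable at this depth.

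The spread between rats was set against counting noise, the variance that random counting of reads alone would give. Of the variance of Htr2c, 3.10% was counting noise, and of that of Htr2a 11.6%. The share was 33.7% for Htr1a, 37.2% for Htr1b, 43.1% for Htr6, 49.0% for Htr1f, 52.7% for Htr3a, 61.4% for Htr7 and 98.2% for Htr4. All 8 receptors with a mean of at least 10 reads varied beyond counting (chi-square dispersion test, adjusted p under 0.05), but so did 89.8% of the 11730 genes tested, so this is the usual state of a gene here. Without libraries 3 and 19, 6 of the 8 passed, and Htr6 (adjusted p = 0.0518) and Htr7 (adjusted p = 0.0529) did not. The SD on the log2(normalized count + 1) scale differed more between the receptors. It was 0.54 for Htr2a, more than in 92.4% of 754 genes of like mean level. Htr2c, with an SD of 0.33, exceeded 95.7% of 1340 such genes. Htr3a, with 0.17, exceeded 18.8% of 1024. Htr1a and Htr1b, at 0.39 and 0.42, each exceeded 71.6% of genes of like level, Htr6 57.3%, Htr1f 48.2% and Htr7 35.7%.

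None of the 7 receptors that passed the filter on low counts differed between the depth blocks (edgeR quasi-likelihood test, adjusted p under 0.05), beside 18.5% of all genes tested. With 7 genes this does not set the receptors apart from that share. At an unadjusted p under 0.05, 1 of the 7 passed. This was Htr6, 0.26 ± 0.11 (SE) higher on the log2 scale in the libraries from 32, with an adjusted p of 0.114. DESeq2 also called none.

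To see which genes moved with each receptor, the counts of every other gene were regressed on the receptor's log2 value (edgeR quasi-likelihood test, p adjusted over all genes tested, called under 0.05). This count differed widely between the receptors. Htr2a was followed by 3400 of 11291 genes (30.1%), Htr1a by 3165 (28%), Htr6 by 3054 (27%) and Htr1b by 1510 (13.4%). Htr7 was followed by 8 (0.0709%) and Htr2c by 6 (0.0531%). No gene (0%) passed for Htr1f, Htr3a or Htr4. At an unadjusted p under 0.05, 1845, 530 and 1535 genes passed for these 3, and DESeq2 called 19, 0 and 5.

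Much of this rested on library 3. Without it, 399 genes followed Htr1a, 453 followed Htr6 and 0 followed Htr1b, and without libraries 3 and 19 the counts were 3, 0 and 0. At an unadjusted p under 0.05, edgeR gave 1108 genes for Htr1b without library 3, and 606 for Htr1b and 1868 for Htr6 without both. DESeq2 was run with all libraries only and called 1711 for Htr1b and 3144 for Htr6. Htr2a was followed by 2556 genes without library 3 and by 2624 without both. Of the 3400 genes called with all libraries, 1957 (57.6%) were among the 2556 (76.6% of these), all in the same direction. Htr2c had 6 genes with and without library 3, of which 4 were shared.

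**Figure D2:**
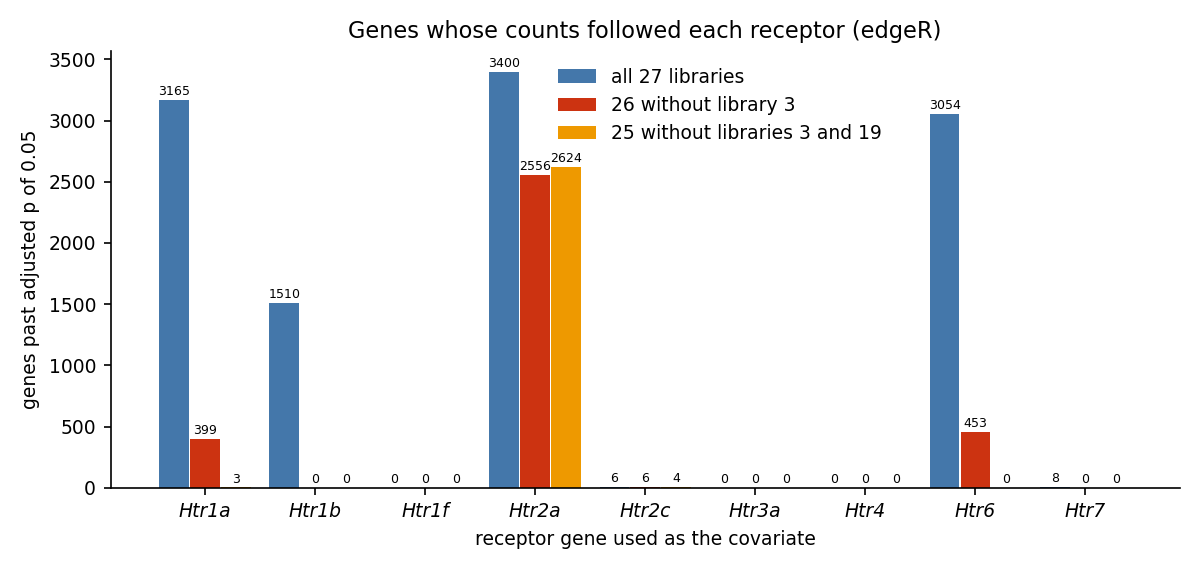
Number of genes past an adjusted p of 0.05 in an edgeR fit (vertical) with each of 9 receptors as the covariate (horizontal), over all 27 libraries, without library 3, and without libraries 3 and 19. The count for Htr2a was 3400, 2556 and 2624, while those for Htr1a, Htr1b and Htr6 fell to 3, 0 and 0 without both libraries.

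Ribosomal protein genes, a list put together after the values were seen, fell with the same receptors when all libraries were used. Of the 72 genes, 66 fell with Htr6, 65 with Htr1a, 63 with Htr1b and 62 with Htr2a. These counts lay beside 27%, 28%, 13.4% and 30.1% of all genes called in either direction. None of the 72 rose with any of the 4. Without library 3 the counts were 31, 15, 0 and 9, beside 4.02% of all genes called with Htr6 in that fit, 3.54% with Htr1a, 0% with Htr1b and 22.7% with Htr2a. Their sum was related to Htr6 across the 27 rats with rho = -0.57 (permutation p = 0.00232) and r = -0.78 (permutation p = 2e-05). Without library 3, rho was -0.52 (permutation p = 0.00703), and r was -0.49 without the 2 libraries farthest from the median of the sum. The relation held in the libraries up to 31 (rho = -0.80, permutation p = 0.00032) but not in those from 32 (rho = -0.05, permutation p = 0.904). The difference between the blocks was not tested. For Htr1a, rho was -0.56 (permutation p = 0.00292) and -0.50 without library 3 (permutation p = 0.0095). For Htr1b, rho was -0.45 (permutation p = 0.0201) and -0.38 without library 3 (permutation p = 0.0561). For Htr2a the relation was weaker by rank, with rho = -0.36 (permutation p = 0.0653) and -0.29 without library 3 (permutation p = 0.158). For Htr2c, rho was -0.23 (permutation p = 0.254) and r was -0.31 (permutation p = 0.11). Relations of the sum with all 9 receptors were computed, and these p-values are not adjusted. The part of RNA quality or of the cell types in the piece was not tested.

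**Figure D3:**
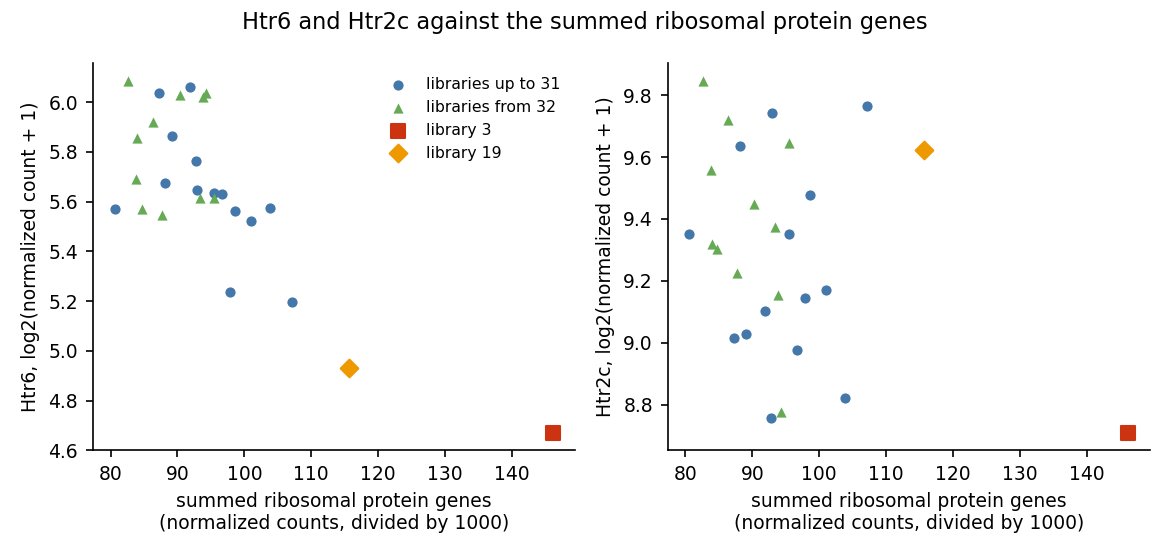
Log2(normalized count + 1) of Htr6 (left) and Htr2c (right) against the summed normalized counts of 72 ribosomal protein genes (horizontal, divided by 1000), 1 point per rat. Libraries 3 and 19 hold the largest sums, 146173 and 115630, and the lowest Htr6 values.

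The receptors were then set against each other over 36 pairs. Spearman's rho lay between -0.21 and 0.63 with a median of 0.21. All 8 pairs with Htr3a had a rho below 0, from -0.21 to -0.04, with permutation p from 0.279 to 0.826. Their r ran from -0.33 with Htr2c to 0.04 with Htr6, so no inverse relation was shown. The rho of pairs with Htr2c ran from -0.21 to 0.27. A pair was called when each receptor passed in the fit of the other, with the same sign, which 21 pairs of the 7 filtered receptors could do.

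Htr1a, Htr1b, Htr6 and Htr2a gave the 3 pairs called. Htr1a rose with Htr6 (rho = 0.48, permutation p = 0.0128, r = 0.60, permutation p = 0.00128, and adjusted p = 0.0163 and 0.0115 in the 2 edgeR fits). Htr1a rose with Htr1b (rho = 0.42, permutation p = 0.0314, r = 0.60, permutation p = 0.00121, and adjusted p = 0.022 and 0.0324). Htr1b rose with Htr2a (rho = 0.53, permutation p = 0.00501, r = 0.58, permutation p = 0.00203, and adjusted p = 0.0252 and 0.0101). These are 3 pairs of 21, beside the 13.4% to 30.1% of all genes that followed these 4 receptors. Htr1b and Htr6 passed in 1 fit of 2 (edgeR adjusted p = 0.0771 and 0.0473).

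None of the 3 pairs was called without library 3. For Htr1a with Htr6, rho was then 0.41 (permutation p = 0.0366) and the adjusted p values were 0.217 and 0.168. For Htr1a with Htr1b, rho was 0.35 (permutation p = 0.0821) with 0.234 and 0.481, and for Htr1b with Htr2a 0.47 (permutation p = 0.0155) with 0.469 and 0.0706. Without the 2 libraries farthest from the median of the first receptor, r dropped to 0.21 and 0.30 for the pairs of Htr1a, where these were libraries 3 and 19, and was 0.56 for Htr1b with Htr2a, where they were 3 and 31. For that pair r was 0.39 without library 3 alone (permutation p = 0.0504) and 0.33 without libraries 3 and 19 (permutation p = 0.112). Within the blocks, Htr1a and Htr6 gave rho = 0.54 up to 31 (permutation p = 0.0344) and 0.44 from 32 (permutation p = 0.184). Htr1a and Htr1b gave 0.42 (permutation p = 0.107) and 0.45 (permutation p = 0.163), and Htr1b and Htr2a gave 0.61 (permutation p = 0.0146) and 0.41 (permutation p = 0.215). All 6 values were above 0.

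Htr2a and Htr7 had the highest rho of the 36 pairs, 0.63 (permutation p = 0.00053), with r = 0.65 (permutation p = 0.00026). Htr7 rose with Htr2a by 0.27 ± 0.07 (SE) on the log2 scale per SD of Htr2a (edgeR, adjusted p = 0.00636), but in the fit of Htr7 the adjusted p of Htr2a was 0.0536, so the pair was not called. DESeq2 called it. Without library 3, rho was 0.59 (permutation p = 0.0019), and r was 0.56 without libraries 3 and 26. The relation was seen in the 16 libraries up to 31 (rho = 0.78, permutation p = 0.00064) and not in the 11 from 32 (rho = 0.08, permutation p = 0.818). The difference between the blocks was not tested. Htr1b and Htr4 gave rho = 0.58 (permutation p = 0.00167), but with 0 to 5 reads of Htr4 a library this is no finding.

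**Figure D4:**
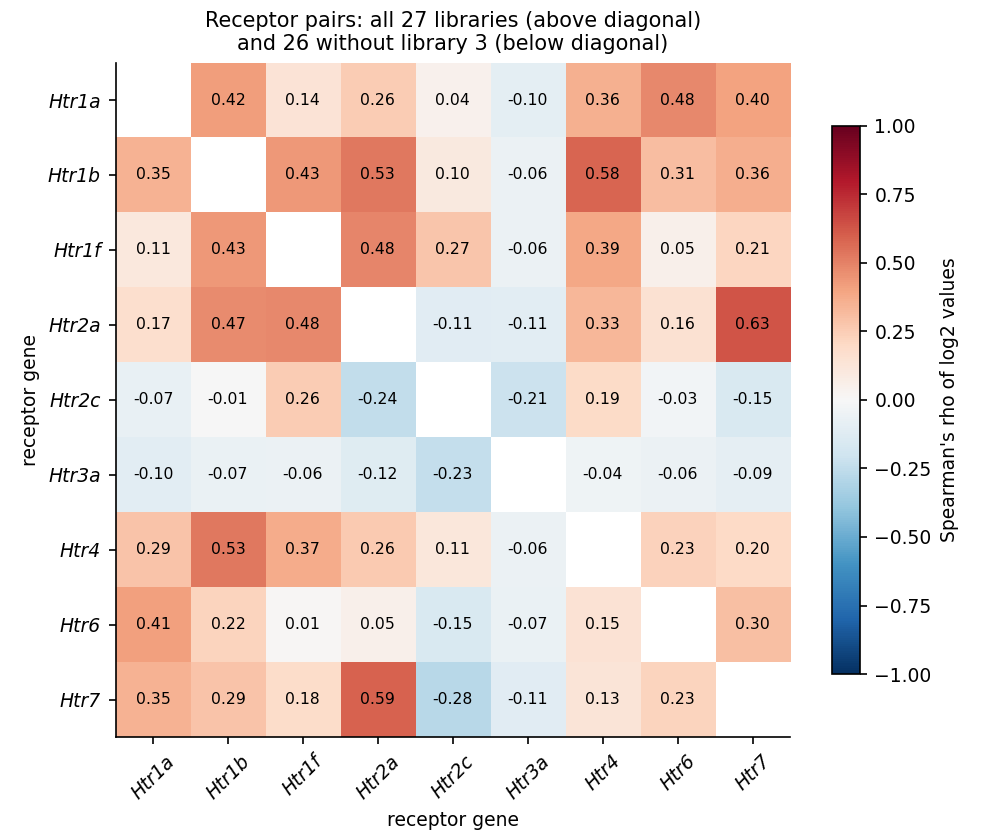
Spearman's rho between the log2 values of each 2 of 9 receptors (color and printed value), over all 27 libraries above the diagonal and over 26 without library 3 below it. The highest value is 0.63 for Htr2a and Htr7 (0.59 without library 3). The row of Htr3a is below 0 throughout, with a permutation p of 0.279 or more for each of its pairs over all libraries.

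**Figure D5:**
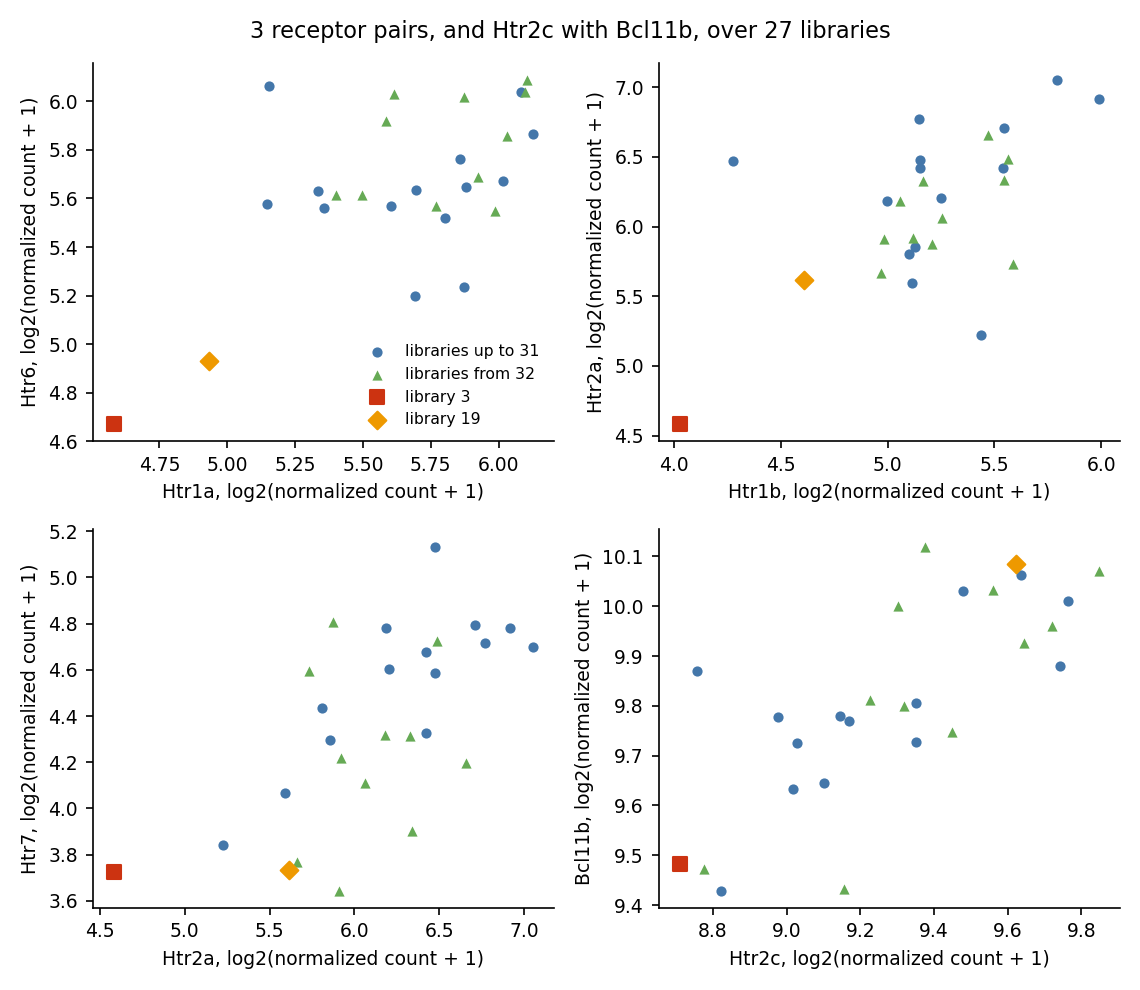
Log2(normalized count + 1) of 1 gene against another, 1 point per rat, for Htr1a with Htr6, Htr1b with Htr2a, Htr2a with Htr7 and Htr2c with Bcl11b. Libraries 3 and 19 lie at the low end of both axes in the Htr1a and Htr6 panel and apart from each other along the Htr2c axis.

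Htr2a was followed by 3400 genes over all libraries, and by 2278 without libraries 12 and 20, where Htr1a had 3329, Htr6 had 3177 and Htr1b had 298. Among genes of the Gq route it signals through, Gnaq (the Gq protein alpha subunit), Plcb1 and Plcb4 (phospholipases C beta) and Rgs4 (a brake on Gq and Gi signalling) rose with it, while Plcb3, another phospholipase C beta, had rho = -0.45 and did not pass (edgeR adjusted p = 0.131). Of 26 receptor signalling partners tested, 14 rose and 3 fell, or 17 of 26, beside 30.1% of all genes, and the median rho of the list was 0.29 against -0.02 over all genes. Plcb1 rose by 0.23 ± 0.03 (SE) on the log2 scale per SD of Htr2a (rho = 0.87, edgeR adjusted p = 2.97e-07). Kcnj3, a potassium channel subunit opened by Gi-coupled receptors, rose by 0.26 ± 0.03 (rho = 0.83, edgeR adjusted p = 1.72e-06). Gnai1, Gnao1, Gnaz, Gna11, Adcy1, Adcy2, Arrb1, Mpdz and Ric3 also rose, and Gnai2, Gnas and Arrb2 fell. Without library 3, 9 rose and 2 fell, beside 22.7% of all genes, among them Gnaq, Plcb1, Plcb4, Rgs4 and Kcnj3. Without libraries 3 and 19, 8 rose and 2 fell, beside 23.2%, and Gnaq was no longer among them.

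The genes most like Htr2a over the 27 rats were Herc3 (rho = 0.91), Exd2 (rho = 0.90) and Flrt2 (rho = 0.88). Flrt2, an adhesion protein of neurons, rose by 0.48 ± 0.05 (SE) on the log2 scale per SD of Htr2a, with an edgeR adjusted p of 2.02e-07. Without library 3, rho was 0.92 for Herc3 and 0.87 for Flrt2. Within the blocks, rho of Herc3 was 0.91 up to 31 and 0.85 from 32.

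Some markers of several cell types rose with Htr2a and others had a negative rho, beside 30.1% of all genes called. Of 6 excitatory neuron genes, 3 rose, among them Slc17a7 and Camk2a. Neither Slc17a7 nor Camk2a passed without library 3, where 2 other genes of the list rose. Calb1 and Rasgrf2 rose among 5 upper-layer genes tested, Gad2 and Kcnc2 among 5 genes of parvalbumin and somatostatin interneurons, and Reln, Cnr1 and Adarb2 among 8 genes of the Htr3a-class interneurons. Neurod2 of the excitatory genes (rho = -0.20), Lhx6 of the parvalbumin and somatostatin genes (-0.26) and Cck of the Htr3a-class genes (-0.32) did not pass. Of 7 oligodendrocyte genes, Mbp and Mog fell, Ermn had rho = 0.19 and did not pass, and no gene of that list passed without library 3. Cnr1, the cannabinoid receptor, had rho = 0.83 with Htr2a (edgeR adjusted p = 1.21e-05). Without library 3, Calb1, Rasgrf2, Gad2, Kcnc2, Reln, Cnr1 and Adarb2 still passed. Without libraries 3 and 19, Adarb2 was lost and Lhx6 fell with Htr2a. Sst, Ndnf and Cux1, which define some of these classes, are listed at 0 in every library. The part of cell makeup in the relations of Htr2a was not tested.

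Some upper-layer genes rose with Htr1a and Htr6 when all libraries were used. Cux2, a transcription factor of upper cortical layers, rose with Htr1a (rho = 0.71, edgeR adjusted p = 0.000172) and with Htr6 (rho = 0.70, edgeR adjusted p = 0.000101), and passed with both without library 3 but with neither without libraries 3 and 19. Rasgrf2 and Mdga1 rose with both when all libraries were used, so that 3 of 5 upper-layer genes were called for each receptor, beside 28% of all genes for Htr1a and 27% for Htr6. With the depth block as a term, 2 of the 5 were called for each receptor. The excitatory neuron genes Slc17a7, Camk2a and Neurod2 rose with both, and none of these passed without library 3. In all, 4 of 6 excitatory genes rose with each receptor, or 2 with Htr1a and 3 with Htr6 when the depth block was a term. The oligodendrocyte genes Mbp and Cnp fell with Htr6, and neither passed without library 3. With Htr1b, beside 13.4% of all genes called, Cux2 and Rasgrf2 of the upper-layer genes and Gad1 and Gad2 of the parvalbumin and somatostatin interneuron genes rose, and Gad2 rose while Pvalb fell with Htr1a. None of these genes passed with Htr1b, and neither Gad2 nor Pvalb with Htr1a, without library 3. Among 6 microglia genes, Aif1 and Mrc1 fell with Htr1a, Htr2a and Htr6, and Cx3cr1 rose with Htr1a. These counts lay beside 28%, 30.1% and 27% of all genes, and no microglia gene passed with any of the 3 without library 3. With the depth block as a term, 0 microglia genes fell with Htr1a, 2 with Htr2a and 1 with Htr6. From 0 to 2 genes in each of the layer 5, layer 6, claustrum, striatal, astrocyte, vascular, meningeal and immediate early gene lists passed with these 4 receptors.

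Of the 26 signalling partners, 11 rose and 4 fell with Htr1a, 10 rose and 1 fell with Htr1b, and 9 rose and 2 fell with Htr6, beside 28%, 13.4% and 27% of all genes called in either direction. Gnao1 and Gnaz, subunits of the Gi family, and the potassium channel genes Kcnj6 and Kcnj9 rose with all 3. Kcnj3 and Gnai1 rose with Htr1a and Htr1b, as did Gnaq. Gnai2 fell with all 3. Adcy5, Gnal, Gna11 and Arrb1 rose with Htr1a and Htr6, Adcy2 with Htr1b and Htr6, and Plcb1 and Ric3 with Htr1b. Gnai3 fell with Htr1a and Htr6, and Gnas and S100a10 with Htr1a. Median rho of the list was 0.27 for Htr1a, 0.27 for Htr1b and 0.16 for Htr6, against 0.01, -0.01 and 0.01 over all genes. Without library 3, the partners of Htr1a that passed were Gnao1, Gna11 and Adcy5, and none passed with Htr1b or Htr6. Without libraries 3 and 19, none passed with any of the 3.

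The genes most like Htr1a were Nlgn2, an adhesion protein of inhibitory synapses (rho = 0.79), Mapkbp1 (0.77) and Efnb2 (0.76). Those most like Htr1b were Clstn2, a synaptic calsyntenin (rho = 0.83), Lman1 (0.73) and Ttbk2 (0.70). Those most like Htr6 were Mcur1, a regulator of mitochondrial calcium uptake (rho = 0.81), Rnf123 (0.77) and Ctc1 (0.76). All 9 passed in the fit of their receptor when all libraries were used.

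Htr2c moved with 6 genes. Zfp667, Bcl11b, Krt71 and Ecel1 rose with it, and Nrep and Pvalb fell. Zfp667, a zinc finger gene, was read at 208 to 372 normalized counts with a median of 264, and rose with Htr2c in both blocks (rho = 0.84, 0.84 up to 31 and 0.85 from 32, edgeR adjusted p = 0.0184). Bcl11b, a transcription factor of layer 5 output neurons and of striatal projection neurons, was read at 688 to 1112 with a median of 894. It rose by 0.15 ± 0.03 (SE) on the log2 scale per SD of Htr2c (edgeR adjusted p = 0.0208). Its rho with Htr2c was 0.75 (permutation p = 4e-05) and its r was 0.76, the latter at the smallest p that the permutations can give, 1e-05. Without library 3, rho was 0.73, and r was 0.80 without the 2 libraries farthest from the Htr2c median. It was 0.74 in the libraries up to 31 (permutation p = 0.00164) and 0.62 in those from 32 (permutation p = 0.0475). Pvalb, the calcium buffer of fast-spiking interneurons, fell by 0.18 on the log2 scale per SD of Htr2c (rho = -0.65, edgeR adjusted p = 0.0475), and its adjusted p was 0.23 without library 3. Pvalb also fell with Htr1a (edgeR adjusted p = 0.0112), but not without library 3, which held its highest level, 720 normalized counts. Without library 3, 6 genes again passed with Htr2c, namely Zfp667, Bcl11b, Ecel1 and Nrep (edgeR adjusted p = 0.041 each) and, in place of Krt71 and Pvalb, Drd1 and Foxp2, which rose. Without libraries 3 and 19, 4 genes passed, and Bcl11b was not among them.

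The 9 striatal genes had a median rho of 0.27 with Htr2c, and Pde10a, a phosphodiesterase gene, had -0.13 (edgeR adjusted p = 0.941). Drd1 and Rgs9 had rho = 0.66 and 0.50 with Htr2c, and neither passed when all libraries were used (edgeR adjusted p = 0.0537 and 0.237). Drd1, a dopamine receptor gene, passed without library 3 and again without libraries 3 and 19. With the depth block as a term, 1 of the 9 striatal genes rose with Htr2c. Foxp2, on the layer 6 list, had rho = 0.62 (edgeR adjusted p = 0.17) over all libraries. The summed striatal markers (9 genes) lay between 3558 and 4904 normalized counts, and their part in the Htr2c relations was not tested. The third gene most like Htr2c beside Zfp667 and Bcl11b was Gaa, a lysosomal enzyme (rho = 0.75, edgeR adjusted p = 0.0537). None of the 26 signalling partners passed with Htr2c.

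Htr3a moved with none of the 8 genes of its interneuron class that were tested, whose median rho was 0.05 against 0.00 over all genes, and with none of the 26 signalling partners. Its most alike genes, Pip4p1 (rho = 0.71), Timm17b (0.66) and Ngrn (0.64), had an edgeR adjusted p of 0.914 each. Htr7 rose with Lrp1b, Tmem196 and Cul5, and Rprml, Bad, Ctnnbip1, C8h19orf38 and Chchd2l3 fell with it. None of these passed without library 3. The genes most like Htr7 were Acbd5, Nectin3 and Phka1 (rho = 0.71 each, edgeR adjusted p from 0.0536 to 0.0595). Those most like Htr1f were Nell1, Mmp16 and Nup155 (rho = 0.70, 0.66 and 0.64), and those most like Htr4 were Capn7, Nfat5 and C5h1orf159 (rho = 0.65, 0.64 and 0.63), none of which passed.

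Among the other receptor genes, Htr5a, a Gi-coupled receptor, was read at 73.2 ± 16.9 normalized counts (SD, n = 27), with its lowest value, 21.4, again in library 3 and its highest, 104, in library 12. It rose with Htr2a (rho = 0.66, r = 0.78, edgeR adjusted p = 0.000312), also without library 3 (rho = 0.62, edgeR adjusted p = 0.00536). It rose with Htr1a with all libraries (edgeR adjusted p = 0.00778) and gave an adjusted p of 0.207 without library 3. Htr1d had 0 to 15 reads a library, Htr5b 0 to 7 and Htr2b 0 to 3.

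Of the genes that make, carry and break down serotonin, those for breakdown had the highest counts, which are not divided by gene length and so do not rank the genes by level. Maoa and Maob, the monoamine oxidases, stood at 592 ± 63.7 and 903 ± 103 normalized counts, and Aldh2 at 989 ± 97.8 (SD, n = 27). Maoa rose with Htr2a (rho = 0.66, edgeR adjusted p = 0.00194) and Aldh2 fell with it (rho = -0.55, edgeR adjusted p = 0.0218), and both passed without library 3. Ddc, which makes serotonin and dopamine from their precursors, stood at 100 ± 22.5 and the vesicle carrier Slc18a2 at 95.2 ± 12.6. Tph1 and Tph2, the rate-limiting enzymes of serotonin synthesis, had 0 to 7 and 1 to 11 reads, Asmt 4 to 27 and Aanat 2 to 20.

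Slc6a4, the serotonin transporter, differed between the depth blocks. It had 2 to 23 reads in the libraries up to 31 and 0 to 7 in the deeper libraries from 32, or 11.3 ± 6.98 (SD, n = 16) against 2.01 ± 1.54 normalized counts (SD, n = 11). It did not pass the filter on low counts. In the edgeR fit without that filter it was lower from 32 by a log2 difference of -2.39 ± 0.37 (SE), with an adjusted p of 5.98e-05. The groups overlapped. Of the genes that passed the filter, 18.5% also differed between the blocks (edgeR, adjusted p under 0.05). The cause of the difference in Slc6a4 was not tested.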

How the data were processed

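The mPFC RNA of 27 rats was sequenced as single reads, with a library for each rat. Per gene, the authors deposited raw counts that were not normalized. Trimmomatic, STAR and HTSeq are named in the submitters' processing notes, while their versions, the genome build and the strand setting are not given in the sources used here. The library kit and the section of cortex differ between the sample labels and the study's methods. All 27 columns were used. Reads of overlapping genes and close copies are uncertain, and 436 rows hold single loci of genes that have several.

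Gene IDs were named from the RefSeq list of GRCr8 (27825 of 36865 rows matched). Counts were divided by size factors (median of ratios, DESeq2 1.42.0). Log2 values had 1 added to the normalized count first, which understates changes of low genes. Spread was tested against a Poisson distribution where the mean count reached 10. Genes following a receptor were tested with edgeR's quasi-likelihood test (version 4.0.16, R 4.3.3) after filterByExpr (11292 genes) and TMM, with the receptor's z-scored log2 value as covariate and Benjamini-Hochberg adjustment. Permutation tests were two-sided with 100000 permutations (Python 3.11.15, numpy 2.4.6, scipy 1.17.1, pandas 2.3.3, matplotlib 3.10.9). P-values of the edgeR, DESeq2 and permutation tests rest on the spread between rats, and those of the dispersion test on counting error alone. The scripts were tested on simulated data. Counting noise and floors of 3 counts cover counting error only. Alternatives were TMM or total-count scaling, a pseudocount of 0.1, no filter, DESeq2's Wald test, the depth block as a term, and libraries 12 and 20 left out. Leaving out library 3, or 3 and 19, was chosen after seeing the data.

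The receptors, the gene lists and the depth blocks were chosen with earlier results of these data known. The genes named are the receptors, the other genes of serotonin signalling, the genes of a list called with a receptor where enough of the list was called (33.3% or more), and the 3 genes of highest rho to each receptor. The ribosomal protein genes, the Htr2c and Htr7 followers, Mbp and Mog with Htr2a, Drd1, Rgs9 and the genes that passed without library 3 are outside this rule and were chosen after their values were known. Levels were not compared between receptors, since no transcript lengths were used here. Results of some genes of these lists are not reported here.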

Additional observations from a re-analysis of the deposited data

How the results depend on the processing

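The mean level of each receptor moved by less than 1 SD under TMM or total-count scaling and without libraries 12 and 20, 3, or 3 and 19, and the count of receptors varying beyond counting and of receptors differing between the depth blocks stayed within 1.5 times the reported count under every alternative run. The 3 receptor pairs became 1 without libraries 12 and 20 and 0 without library 3 or without libraries 3 and 19. They numbered 4 with DESeq2 and 3 under the other alternatives. Genes following Htr1a fell to 399 without library 3 and to 3 without 3 and 19, those following Htr6 to 453 and 0, and those following Htr1b to 0 and 0, with unadjusted counts as given for these fits in edgeR (1108 and 606 genes for Htr1b, 1868 for Htr6 without both). Without libraries 12 and 20, 298 genes followed Htr1b. Htr7 had 0 genes with the depth block as a term, without libraries 12 and 20, without library 3 and without 3 and 19, and 665 with DESeq2. DESeq2 called 30 genes for Htr2c, 19 for Htr1f and 5 for Htr4. Without the filter on low counts there were 11 for Htr2c and 2 for Htr1f, and with a pseudocount of 0.1 there were 5 for Htr4. The cause of these changes was not tested. Fewer libraries entered some of the fits. In all, 115 of the alternative values stayed within these limits, 14 were lower and 7 higher. The order of neighbouring receptors by level was not run, since it needs transcript lengths. The receptors with the fewest reads, Htr4, Htr1f and Htr7, had 0 to 5, 4 to 22 and 8 to 38 reads a library, which limits the precision of their values. No paired analysis was possible because all rats form 1 group.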
